A study of Arabidopsis thaliana with 5 samples.

Results

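Genes of auxin response and lateral root formation were followed here in brassinosteroid-treated root cells: LBD16, LBD29, IAA29, GH3.1, GH3.3 and GH3.5. They were taken by gene symbol among array probe sets that name exactly 1 gene, and all 6 were found, each with 1 probe set, among the 13356 genes with such a probe set. The platform annotation lists GH3.5 as WES1, and its gene identifier leads to the RefSeq entry that carries GH3.5 as a synonym. The rule uses symbols and no measured value, but the 6 symbols were picked with earlier results of these arrays known.

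The cells came from Arabidopsis thaliana seedlings, 6 days old, of a transgenic line that carries pBRL3:nlsYFP, a yellow fluorescent protein sent to the nucleus under the promoter of the brassinosteroid receptor gene BRL3. Seedlings of both groups were kept in liquid medium for 2 h. The treated group received brassinolide (BL), an active natural brassinosteroid, at 10 nM and the control group ethanol as a mock. Primary root tips were then turned into protoplasts, fluorescent cells were sorted, and their polyA RNA was hybridised to Affymetrix ATH1 arrays, 3 for control and 2 for BL. Every group thus carried the reporter, was digested to protoplasts and was sorted, the promoter defined the cells, and no array of unsorted root cells or of a line without the reporter was used here. The accession in which the line was made is not named in the labels. The labels also leave unsaid whether replicates were grown separately, so a p-value here reflects the variation among 5 arrays, part of which may be technical.

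Auxin acts by bringing Aux/IAA repressor proteins to TIR1/AFB receptors for degradation, which frees ARF transcription factors to switch on their targets. Among these targets are genes that limit the response again, the Aux/IAA genes themselves and the GH3 genes, whose enzymes join auxin to amino acids. LBD genes are a further class of targets, through which auxin starts lateral roots from pericycle cells next to the xylem poles. Brassinosteroids and auxin share many target genes in growing organs.

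The arrays differed in ways that the groups do not account for. Medians of the log2 expression values lay between 5.57 and 5.66. The deposited values had already been normalized across arrays (RMA), so these medians do not show whether the general level was alike before. The 3' probe sets of the poly-A spike-ins, bacterial transcripts added before labelling, reached a median of 8.01 on control array 2 and 7.39 on control array 3, against 4.44 to 4.71 on the other 3 arrays. No label names a batch. The BL mean minus control replicate 1, which leaves out controls 2 and 3, is therefore given beside each difference over all 5 arrays. The hybridisation spike-ins, added after labelling, were higher on every control array (8.49 to 10.5) than on the BL arrays (7.68 and 8.02), replicate 1 included, so the difference from control replicate 1 cannot be told apart from a technical one either. Of the 18 markers listed for vascular and stem cells, 6 had a single-gene probe set by the platform annotation. Their mean log2 level was 5.92 to 6.52 on control arrays and 6.19 to 6.55 on BL arrays. These markers went both ways. PHV differed by -0.87, with both BL arrays below every control, and BRL1, BBM and JKD by 0.70, 0.58 and 0.47, with overlapping groups. Against control replicate 1, PHV, BRL1, BBM and JKD differed by -0.56, 0.21, 0.98 and 0.48. BRL3 itself and all markers of endodermis, cortex and root cap on the lists were not analysed here. The hair cell expansins EXPA7 and EXPA18 had a mean log2 level of 4.28 to 6.35 on control arrays, highest in replicate 2, and of 4.72 to 5.25 on BL arrays.

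LBD16 and LBD29 encode LOB-domain transcription factors that act downstream of ARF7 and ARF19 in the initiation of lateral roots. Both had their 2 highest values in control replicates 3 and 1. LBD16 stood at 9.84, 8.12 and 10.4 (log2 expression) in control replicates 1, 2 and 3 and at 7.93 and 8.73 in BL replicates 1 and 2. Control replicate 2 fell between the BL values, so the groups overlapped. The mean was 9.44 ± 1.17 in controls (SD, n = 3) and 8.33 ± 0.562 with BL (SD, n = 2), a log2 difference of -1.11 ± 0.781 (SE) with a 95% interval from -3.23 to 1.02. On the linear scale this is a 2.15-fold lower level, and it did not pass the test over all probe sets (limma adjusted p = 0.789). Of all probe sets, 3.2% were lower with BL by at least 1 log2 unit. Against control replicate 1 alone, LBD16 differed by -1.51.

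LBD29 stood at 5.83, 5.16 and 5.86 in control replicates 1, 2 and 3 and at 4.79 and 5.14 in BL replicates 1 and 2. It was the only gene of the 6 whose groups did not overlap, with both BL arrays below every control array, and the step from control replicate 2 to BL replicate 2 was the narrowest part of that separation. Across all probe sets 9.75% had both BL arrays below every control, so 1 gene in 6 is near that share. The difference was -0.65 ± 0.283 (SE), with a 95% interval from -1.42 to 0.12 and a value of -0.86 against control replicate 1. It did not pass either (limma adjusted p = 0.743), and the exact permutation test over the 10 splits of the arrays gave p = 0.2, two-sided, where 0.1 is the smallest p possible. LBD29 was above the array median on 2 of 5 arrays, GH3.1 and GH3.3 on 1, and the other 3 genes on all 5.

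**Figure D1:**
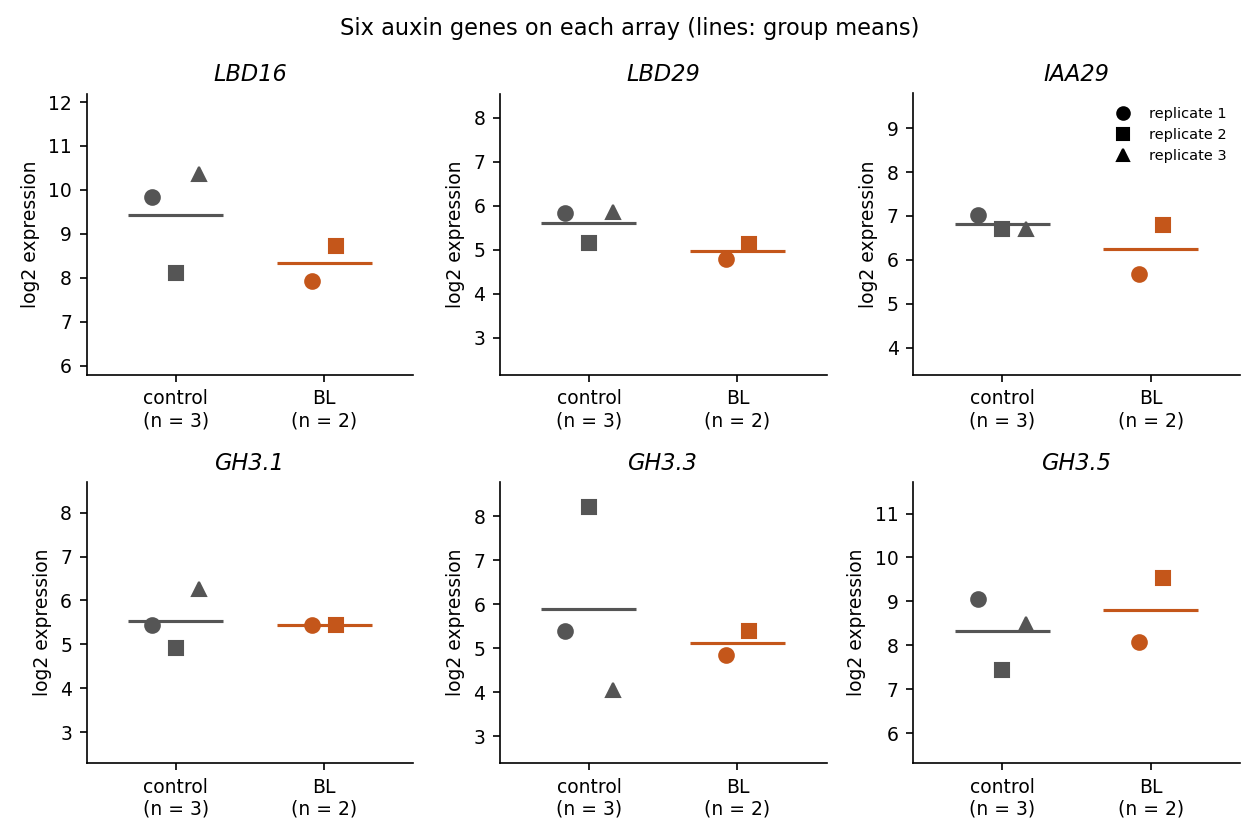
Log2 expression of the 6 genes on each array, with control on the left (n = 3) and BL on the right (n = 2) of each panel, symbols for the replicate number and a line at each group mean; each vertical axis spans the same number of log2 units. LBD29 alone has both BL points below all control points, and GH3.3 is at 8.22 in control replicate 2 against 4.05 to 5.40 elsewhere.

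Single arrays moved the LBD16 difference by more than 1.5 times. It was -0.65 without control replicate 3 and -0.71 without BL replicate 1. Without control replicate 2, LBD16 differed by -1.77 and LBD29 by -0.88, and the BL and control values of LBD16 no longer overlapped. Neither passed then (limma adjusted p = 0.447 and 0.402, over all probe sets). Their unadjusted limma p values were 0.0209 and 0.0107, in a fit where 2097 of all probe sets were under 0.05. The rest of the 6 genes were above 0.05 in that fit. Control replicate 2 also had the highest poly-A spike-in and hair cell marker levels given above. Its mean over the vascular and stem cell markers, 5.92, was the lowest. The 3' minus 5' difference of the actin, GAPDH and ubiquitin control probe sets was 4.70 on this array, against 4.34 to 4.46 elsewhere. The part of these traits in the LBD16 and LBD29 values was not tested.

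IAA29 encodes an Aux/IAA protein, one of the repressors of the auxin response whose own genes respond to auxin. Its log2 level was 7.02, 6.71 and 6.71 in control replicates 1, 2 and 3, and 5.68 and 6.80 in BL replicates 1 and 2. Control replicates 2 and 3 had identical values, which the summary of probes by median polish can produce. The control arrays lay close together, BL replicate 2 lay among them, and BL replicate 1 lay below all of them. The difference of -0.57 ± 0.379 (SE) therefore came from 1 array: it was -0.01 without BL replicate 1 and -1.14 without BL replicate 2. With all 5 arrays its 95% interval ran from -1.61 to 0.46 and it did not pass (limma adjusted p = 0.787). Against control replicate 1 it was -0.78. The gap of 1.12 between the BL arrays was matched or exceeded by 0.497% of all probe sets, while the control range of 0.312 was matched or exceeded by 67.3%.

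The GH3 genes encode acyl acid amido synthetases, and GH3.3 and GH3.5 are among those that conjugate the auxin indole-3-acetic acid to amino acids. The 3 GH3 genes among the 6 did not share a pattern. GH3.1 stood at 5.44, 4.91 and 6.26 in control replicates 1, 2 and 3 and at 5.44 in both BL replicates. The values of control replicate 1 and both BL arrays were identical, which the summary of probes by median polish can produce. The difference was -0.10 ± 0.435 (SE), with a 95% interval from -1.28 to 1.09, and the value against control replicate 1 was 0.

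GH3.3 was at 5.40 in control replicate 1, 8.22 in replicate 2 and 4.05 in replicate 3. With BL it was at 4.84 and 5.40 in replicates 1 and 2. Control replicate 1 and BL replicate 2 had identical values. The BL values lay inside the range of the controls, which spanned 4.17 log2 units, a range reached by 0.638% of all probe sets. The difference was -0.77 ± 1.35 (SE), its 95% interval ran from -4.45 to 2.91, and it did not pass (limma adjusted p = 0.885). It was -0.28 against control replicate 1. Without control replicate 2 the difference was 0.40, and thus of the opposite sign. Control replicate 2 was also the array with the highest EXPA7 (6.52, against 4.20 to 4.96 elsewhere) and EXPA18 (6.17, against 4.35 to 5.54). The part of hair cells in the GH3.3 value was not tested. In sorted tissue measured in bulk, fewer cells of a type and less RNA per cell cannot be told apart.

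GH3.5, whose enzyme also accepts salicylic acid, was the only gene of the 6 with a higher mean after BL. Its log2 level was 9.06, 7.43 and 8.50 in control replicates 1, 2 and 3 and 8.07 and 9.53 in BL replicates 1 and 2. The groups overlapped, with the highest value in BL replicate 2 and the lowest in control replicate 2. The difference of 0.47 ± 0.698 (SE) had a 95% interval from -1.42 to 2.37 and did not pass (limma adjusted p = 0.866). It turned to -0.26 against control replicate 1 and to -0.25 without BL replicate 2. The 2 BL arrays differed by 1.46, a gap that 0.149% of all probe sets reached.

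**Figure D2:**
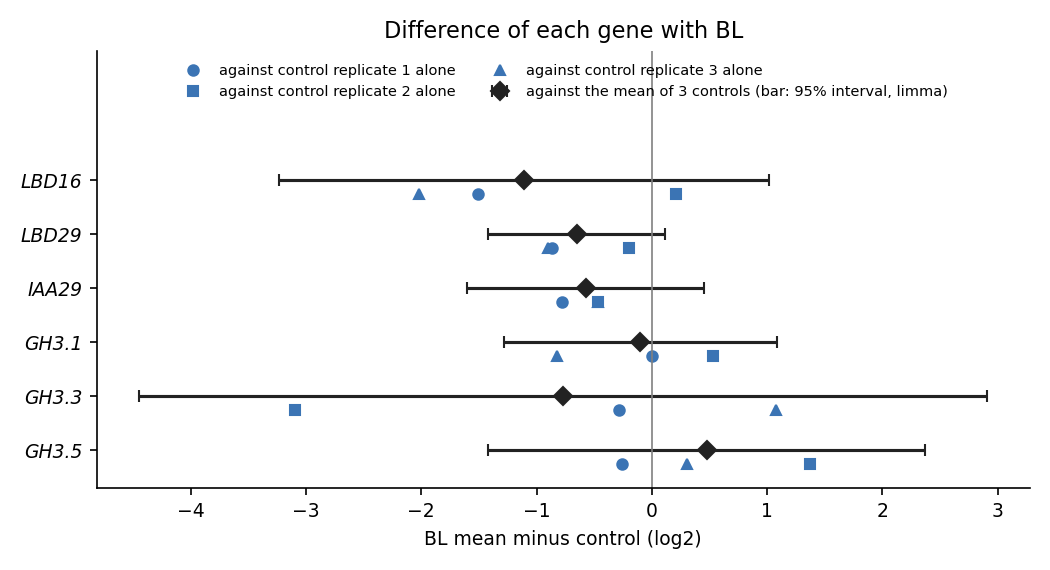
BL mean minus control in log2 units for each gene: diamonds use the mean of the 3 controls, with limma 95% intervals, and the blue symbols below use 1 control array at a time. Every interval spans 0, and GH3.3 runs from -3.10 against control replicate 2 to 1.08 against control replicate 3.

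Seen together, 5 of the 6 genes had a lower mean with BL and 1 a higher one, with a median log2 difference of -0.61. Over all 22746 probe sets 54.5% had a lower mean with BL, and the median was -0.02. Limma with Benjamini-Hochberg adjustment called 0 of the 6, and 0 had an unadjusted p under 0.05, a level that 7.1% of all probe sets reached. After adjustment 0% of all probe sets were called. The adjusted p values of the 6 ran from 0.743 to 0.957. Against control replicate 1 alone, 5 genes were lower and GH3.1 was equal, with a median of -0.53, and 44.6% of all probe sets were lower in that comparison. The median over the 6 ran from -0.94 without BL replicate 2 to -0.29 without BL replicate 1.

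**Figure D3:**
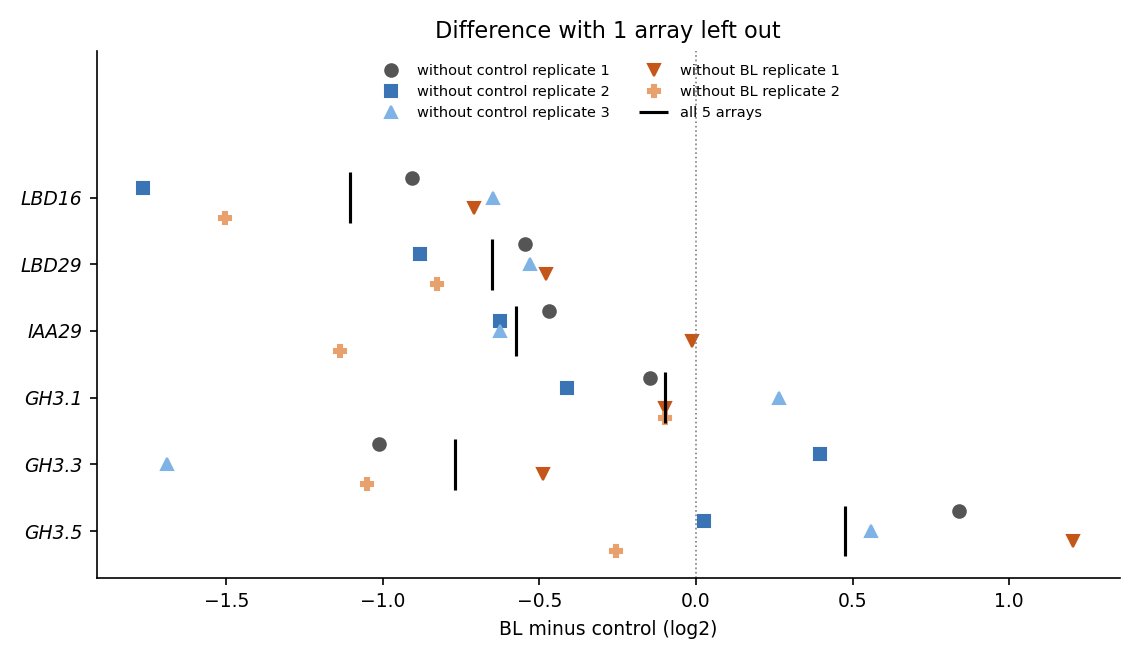
BL minus control in log2 units for each gene with all 5 arrays (black line) and with 1 array left out (symbols). LBD16, LBD29 and IAA29 stay below 0 throughout, IAA29 reaching -0.01, while GH3.1, GH3.3 and GH3.5 have values on both sides of 0.

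Spread within the groups differed among the 6 genes, from the BL gap of 0 in GH3.1 to the control range of 4.17 in GH3.3. BL replicate 1 was below BL replicate 2 for 5 of the 6 and tied with it for GH3.1. It was below for 42.7% of all probe sets, with 3378 of the 22746 tied, and for 5 of the 17 other auxin genes described further on. The gap between the BL arrays had a median of 0.678 over the 6 and of 0.115 over all probe sets. Among the controls, replicate 2 was the lowest for 4 of the 6 (LBD16, LBD29, GH3.1 and GH3.5) and for 30.1% of all probe sets. The range over the controls had a median of 1.49 over the 6 and of 0.5 over all probe sets. These are counts over genes on the same arrays, and were not tested.

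**Figure D4:**
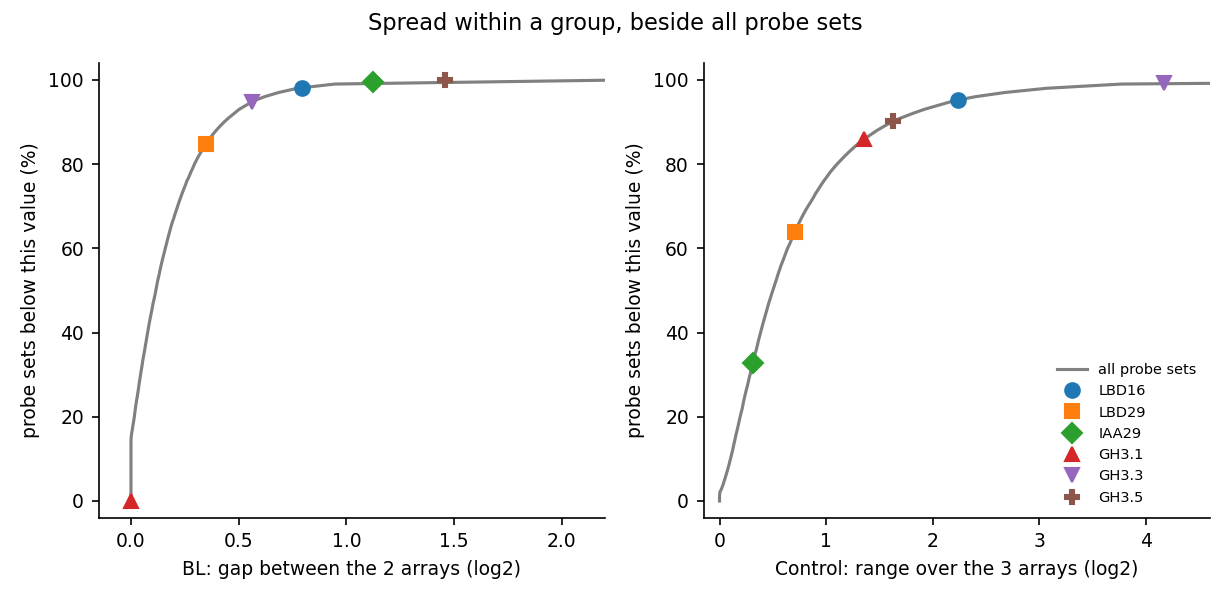
Share of all probe sets (grey line, %) below a given spread, for the gap between the 2 BL arrays (left) and the range over the 3 control arrays (right), in log2 units, with the 6 genes marked. IAA29 and GH3.5 lie at the top of the left panel and GH3.3 at the top of the right one, while the BL gap of GH3.1 is 0.

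For each gene, the 2 single-gene probe sets with the most similar profile over the 5 arrays were sought, by the root mean square difference between profiles centred on their own means. The closest matches were those of LBD29, AT1G49850 and AT3G47160, at 0.0473 and 0.0476 log2 units, where LBD29 itself had an SD of 0.471 over the arrays. LBD16 was nearest to AT2G22420 and AT1G14730 (0.184 and 0.185). IAA29 was nearest to AT4G11210 (0.0931) and AT3G20340 (0.129), which shared its low value in BL replicate 1. GH3.1 was nearest to AT5G06130 and AT5G13400 (0.0811 and 0.0822). GH3.3 was nearest to AT5G61890 (0.139) and AT2G21100 (0.225), both of which peaked in control replicate 2, at 8.64 and 8.79. GH3.5 was nearest to AT4G17070 and AT5G66815, at a wider 0.256 and 0.284. None of the 6 genes was among the 2 nearest of another, which does not show that they are unlike each other. Matches needed an SD of at least 0.5 times that of the gene. LBD29, IAA29 and GH3.1 (SD 0.471, 0.523 and 0.485) thus could not be named for LBD16 or GH3.3 (1.06 and 1.58). Likeness among the 6 was not tested, and the likeness given rests on 5 arrays.

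The rest of the auxin pathway was analysed only in part. Of the 22746 tested probe sets, 8730 name no gene and 503 name several in the platform annotation, and these were not searched. Of 210 further gene names on 8 lists, 17 had a single-gene probe set by that annotation. No member of the lists for receptors and response factors, for the LBD family or for the SAUR family had one. This does not show that the array lacks probes for these genes. Limma called 0 of the 17 in either direction, and 1 of them, WAG2, had an unadjusted p under 0.05 (7.1% of all probe sets). Their mean was higher with BL for 9 and lower for 8, against 44.9% higher over all probe sets, and their median difference was 0.0034. Both BL arrays lay above every control for 5 of the 17 (11.4% of all probe sets) and below every control for 1, IAA31 (9.75% of all probe sets). The lists and the 6 genes were chosen with results in view, so these counts describe them only.

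Aux/IAA repressor genes other than IAA29 went both ways. IAA33, a family member that lacks the degradation motif of canonical Aux/IAA proteins, stood at 8.12, 4.69 and 8.60 in control replicates 1, 2 and 3 and at 10.2 and 9.95 in BL replicates 1 and 2. Both BL arrays were above every control, and control replicate 2 was far below the other 2 controls. Its difference was 2.94 with a 95% interval from -0.72 to 6.59, it was 1.95 against control replicate 1 and 1.71 without control replicate 2, and it did not pass (limma adjusted p = 0.746). IAA20 also lay above every control with BL, by 0.43 in the mean and by 0.28 against control replicate 1. IAA18 and IAA31 differed by -0.49 and -0.29, and by -0.64 and -0.16 against control replicate 1. IAA30 differed by 0.10, which turned to -0.66 against control replicate 1, and IAA34 by 0.0034 (0.08 against control replicate 1).

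Of the other GH3 genes, GH3.17, whose enzyme conjugates auxin to glutamate, was at 9.56, 5.03 and 9.96 in control replicates 1, 2 and 3 and at 10.6 and 11.2 in BL replicates 1 and 2. Both BL values exceeded all controls, as they did for GH3.9, which differed by 0.15, and by 0.14 against control replicate 1. The difference of GH3.17 was 2.69 and its 95% interval ran from -2.02 to 7.41, with 1.32 against control replicate 1 and 1.12 without control replicate 2. It did not pass (limma adjusted p = 0.787). The low value of control replicate 2 in GH3.17 and IAA33 stands beside the high value of the same array in GH3.3.

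**Figure D5:**
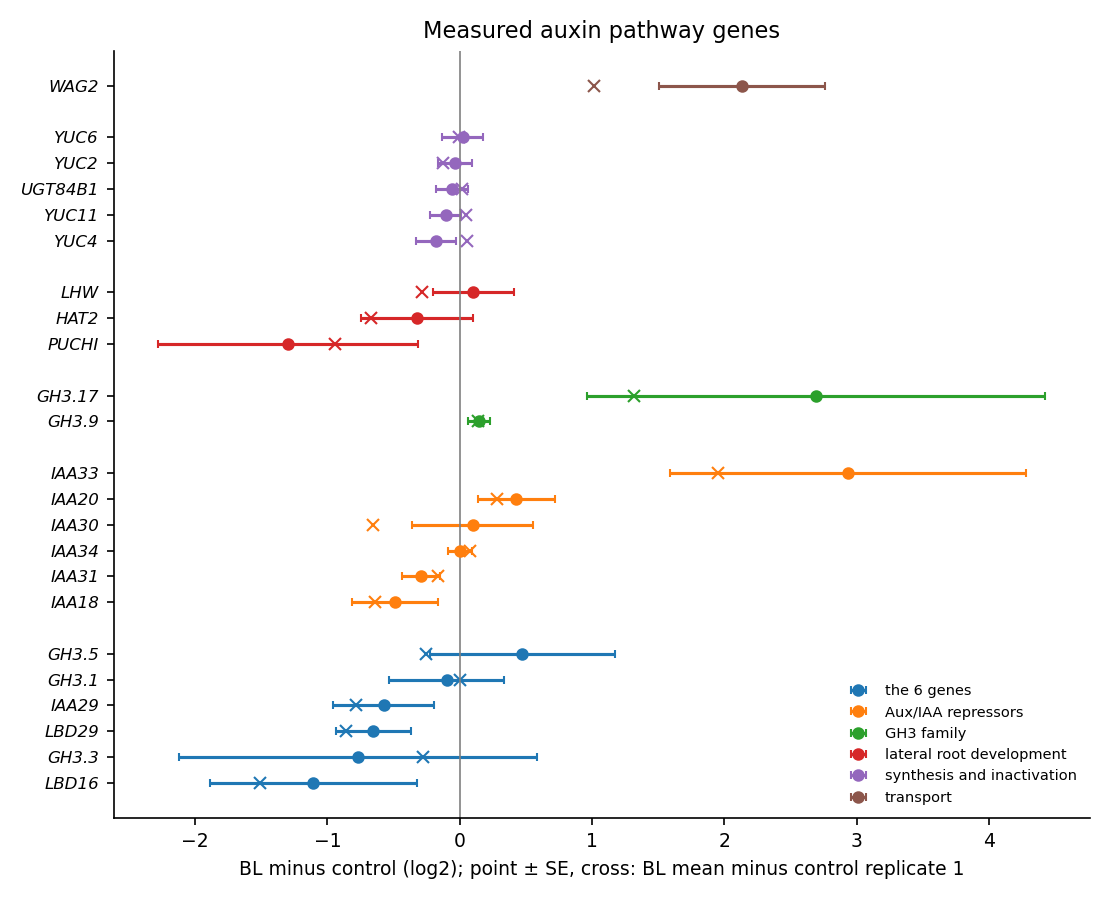
BL minus control in log2 units for the 6 genes and the 17 other measured auxin genes, by list, as points ± SE with crosses for the BL mean minus control replicate 1. WAG2, GH3.17 and IAA33 have the highest differences, 2.13, 2.69 and 2.94, with lower values against control replicate 1, and none of the 23 genes passed the test.

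WAG2, an AGC kinase related to PINOID that acts on PIN auxin exporters, was the only gene of the transport list with a single-gene probe set by the platform annotation. It stood at 7.96, 6.43 and 6.14 in control replicates 1, 2 and 3 and at 9.12 and 8.83 in BL replicates 1 and 2, so both BL arrays were above every control. The difference was 2.13, with a 95% interval from 0.42 to 3.84, and 1.01 against control replicate 1. It did not pass over all probe sets (limma adjusted p = 0.646).

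Among further genes of lateral root development, PUCHI, an AP2/ERF-type transcription factor of the young primordium, had the lowest difference of the 17. It was at 6.92, 5.98 and 8.94 in control replicates 1, 2 and 3 and at 5.62 and 6.34 in BL replicates 1 and 2. Its highest value was in control replicate 3, as for LBD16 and LBD29, and the groups overlapped. The difference of -1.30 had a 95% interval from -3.97 to 1.37 and was -0.94 against control replicate 1. It shrank to -0.47 without control replicate 3 and widened to -1.95 without control replicate 2. HAT2, an auxin-induced homeodomain gene, differed by -0.32, and by -0.67 against control replicate 1. LHW, a bHLH regulator of vascular cell number, differed by 0.10, and by -0.28 against control replicate 1. With 1 array left out, HAT2 ran from -0.72 to 0.07 and LHW from -0.15 to 0.30. The auxin synthesis genes YUC2, YUC4, YUC6 and YUC11 and the auxin glucosyltransferase gene UGT84B1 differed by -0.18 to 0.02, and by -0.13 to 0.05 against control replicate 1, and all 5 lay below the array median on every array.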

How the data were processed

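The values deposited by the authors are log2 expression after RMA. Their processing notes list affy 1.70.0 and limma 3.48.3 under R 4.1.1. The base of the logarithm was taken as 2 from the method and the range of the values. RMA ends in median polish, which can give several arrays the same value. This was so for 44.7% of probe sets, 3 of the 6 genes included. After 64 control probe sets were set aside, 22746 were tested, of which 13513 name 1 gene, 503 several and 8730 none in the platform annotation. RefSeq (TAIR10.1) gave loci and synonyms only. Sequences were not used here.

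All 5 arrays entered a fit of BL against control without further terms (lmFit, eBayes; limma 3.58.1, R 4.3.3). P-values were adjusted by Benjamini-Hochberg over the 22746 probe sets, and an adjusted p under 0.05 counted as a call. The fit had 3 residual and 1.22 prior degrees of freedom. The number of arrays limits the precision. Named were the 6 genes, every measured gene of a list with 8 or fewer, and 2 genes of most similar profile per gene, with an SD of at least 0.5 times that gene's. The 6 genes and the lists were chosen with earlier results of these data known. Alternatives changed the normalization, filter, floor, variance model, weights, block, a term for controls 2 and 3, and arrays. Leaving arrays out for single other auxin genes was added after seeing the data.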

Additional observations from a re-analysis of the deposited data

How the results depend on the processing

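Of 87 alternative values for the 6 genes, 80 did not turn their sign, counting GH3.1 at 0 with a term for controls 2 and 3 and without these arrays, and 0 passed the adjusted threshold. LBD16, LBD29 and IAA29 were below 0 in all of theirs. The 87 values are not separate checks of the sign. The filter on level and the variance model leave each difference as it was, so they could not turn it. The replicate block gave the same differences as leaving out control replicate 3. The term for controls 2 and 3 gave the same differences as leaving out these arrays. GH3.3 turned to 0.25 with array weights, and GH3.5 to -0.26 both with that term and without these arrays. With 1 array left out, GH3.1 ran from -0.41 to 0.26, GH3.3 from -1.69 to 0.40 and GH3.5 from -0.25 to 1.20. A lone BL array was then assumed to vary like the controls. With a floor of 5, limma called 11 probe sets, none of them among the 6 or the 17 other auxin genes. For 8 of the 11 a whole group lay at the floor. Otherwise the cause was not tested. In the other alternatives 0 probe sets were called. The count at an unadjusted p under 0.05 was 1616, and became 3505 with array weights, 4753 without controls 2 and 3, and 674 to 3507 with 1 array left out. With array weights, LBD16 and LBD29 had unadjusted limma p values of 0.04 and 0.0189, and the rest of the 6 were above 0.05. The filter on level left out LBD29, GH3.1 and GH3.3. With 1 probe set per gene, no other probe set could be tried.

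Same-numbered arrays of the groups correlated in their deviations from the group means at -0.0601 (replicates 1) and 0.0374 (replicates 2), and the labels do not say that a number marks a shared batch. With the replicate block GH3.1 turned to 0.26, the same value as without control replicate 3. No BL array has that number, so the block takes control replicate 3 out of the difference. With the block 0 probe sets passed, with 1211 at an unadjusted p under 0.05. Signal over background could not be judged from these values.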
